A study of Mus musculus with 4 samples.

Results

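The genes described here are 48 mouse genes known to be imprinted, that is, expressed from the chromosome of 1 parent. They were chosen by name, and all 48 are among the 23309 genes of the deposited expression table. RNA sequencing was carried out on embryonic stem cells of strain 129/Ola at passages given in the labels as 10-20, grown on gelatin with serum and leukemia inhibitory factor. The groups were wild type and cells with both Chd2 alleles mutated (Chd2mut/mut, called Chd2KO in the sample titles), with 2 libraries each, marked lot 1 and lot 2. Chd2 encodes an ATP-dependent chromatin remodeler, and the comparison asks how RNA levels differ when both of its alleles are mutated. The labels do not say how the lines were derived, whether a line is a single clone or whether the lots were separate cultures, so the q-values may measure technical spread only.

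Imprinted genes lie in domains in which a control region carries DNA methylation on the maternal or the paternal copy from the germ line onward. In the embryo this mark is kept through the wave of demethylation by the zinc finger protein ZFP57 with TRIM28 and DNA methyltransferases, and it sets which copy of each neighbouring gene is read. A few genes, Sfmbt2 and Slc38a4 among them, are silenced on the maternal copy by H3K27 methylation laid down in the oocyte. Many imprinted genes act on fetal and placental growth, and imprints are known to drift in cultured embryonic stem cells. The values here are summed over the parental copies, so they show the level of a gene and not its imprint.

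The table holds 1 value per gene and genotype in FPKM, sequenced fragments scaled for transcript length and library size, which allows levels to be compared between genes. Since each value is the authors' own over the libraries of a genotype, it has no standard deviation, and the depth is unknown. Calls of significance are those of the authors' deposited table. Chd2 itself was at 10.2 FPKM (wild type) and 5.69 FPKM (mutant), so 55.9% of its wild-type RNA level remained in the mutant. For Chd2 the authors' deposited table gives a log2 fold change of -0.84 (q-value 0.0103). The 10 pluripotency markers were all above 1 FPKM and none was called. They had a median change of 0.13 in log2(FPKM + 1), mutant minus wild type, with 8 above 0 and 2 below. Pou5f1 was at 1032 and 1071 FPKM, Nanog at 114 and 150 FPKM, Sox2 at 178 and 222 FPKM, Klf2 at 146 and 165 FPKM and Utf1 at 694 and 615 FPKM (here and throughout, the first value of a pair is that of wild type and the second that of the mutant). No extraembryonic endoderm marker exceeded 0.710 FPKM in either genotype. Of 8 neural markers, 4 averaged at least 1 FPKM and none was called: Tubb3 was at 50.7 and 49.1 FPKM, Nes at 4.12 and 3.58 FPKM, Map2 at 1.84 and 1.87 FPKM and Pax6 at 1.68 and 2.42 FPKM. Fibroblast and trophoblast markers are given with Mest and Sfmbt2 further on.

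Of the 48 imprinted genes, 2 were called, Mest and Sfmbt2, and both fell in the mutant. The authors' deposited table gave 36 of the 48 a q-value under 1, and the 2 calls are 5.56% of these, beside 0.718% of all 11276 genes with such a q-value called in either direction and 0.461% called as lower. The gene set was put together with several of these values known, so this count describes the set and is not a test of it. No imprinted gene was called as higher, beside 0.257% of all genes. At shares this low a short list usually holds no call, which applies to the marker lists, domains and other lists too. Of the 36 genes, 23 had a q-value above 0.9.

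Mest encodes an enzyme of the alpha/beta hydrolase family and is read from the paternal copy of chromosome 6. Its RNA was measured at 9.42 FPKM in wild-type cells, compared with 2.72 FPKM in the mutant. The mutant thus held 28.8% of the wild-type level, and the authors' deposited table gives a log2 fold change of -1.79 (q-value 0.0103). By that fold change Mest ranked 5 among the 52 genes called as lower. Sfmbt2, a Polycomb group gene needed for the trophoblast lineage, is read from the paternal copy of chromosome 2. It fell from 11.4 FPKM in wild-type cells to 6.26 FPKM in mutant cells, and the authors' deposited table gives a log2 fold change of -0.86 (q-value 0.0103). It ranked 31 by the same measure. That q-value is the lowest in the table and is shared by 55 genes.

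The sequences below are the start regions of the members with the largest falls or lower values, shown so that copies of a motif tied to imprinting can be seen beside the levels. Each runs from 250 bases before to 50 bases after an annotated start (RefSeq, GRCm38.p6, a later build than the mm9 used for the expression values). Capitals mark TGCCGC, the hexamer bound by ZFP57 when methylated, or its reverse complement GCGGCA. Mest has an upstream start without the hexamer and a downstream one with 2 copies. Nnat, described further on, has 1 copy, and neither of the Sfmbt2 windows has any, the downstream one being shown. The 3 windows of Slc38a4, which was also lower, have no copy and are not shown.
Mest, upstream start, chr6:30733256-30733555, plus strand: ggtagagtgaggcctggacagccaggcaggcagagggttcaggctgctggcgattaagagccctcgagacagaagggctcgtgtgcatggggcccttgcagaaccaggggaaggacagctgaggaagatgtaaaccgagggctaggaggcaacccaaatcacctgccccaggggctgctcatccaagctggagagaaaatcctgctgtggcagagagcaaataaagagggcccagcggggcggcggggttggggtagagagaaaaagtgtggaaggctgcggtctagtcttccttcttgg
Mest, downstream start, chr6:30737800-30738099, plus strand: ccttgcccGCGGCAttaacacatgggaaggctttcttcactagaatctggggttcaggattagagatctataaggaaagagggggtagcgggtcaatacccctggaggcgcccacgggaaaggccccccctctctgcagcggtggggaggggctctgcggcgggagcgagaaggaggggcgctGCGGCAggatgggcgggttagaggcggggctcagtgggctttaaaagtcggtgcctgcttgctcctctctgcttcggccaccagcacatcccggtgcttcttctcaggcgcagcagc
Nnat, chr2:157559828-157560127, plus strand: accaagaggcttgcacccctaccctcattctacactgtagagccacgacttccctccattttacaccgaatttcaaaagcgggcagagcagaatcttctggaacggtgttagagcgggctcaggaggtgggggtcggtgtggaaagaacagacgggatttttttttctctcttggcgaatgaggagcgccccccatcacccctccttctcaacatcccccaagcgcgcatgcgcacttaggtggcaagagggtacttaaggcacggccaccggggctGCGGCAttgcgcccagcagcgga
Sfmbt2, downstream start, chr2:10372186-10372485, plus strand: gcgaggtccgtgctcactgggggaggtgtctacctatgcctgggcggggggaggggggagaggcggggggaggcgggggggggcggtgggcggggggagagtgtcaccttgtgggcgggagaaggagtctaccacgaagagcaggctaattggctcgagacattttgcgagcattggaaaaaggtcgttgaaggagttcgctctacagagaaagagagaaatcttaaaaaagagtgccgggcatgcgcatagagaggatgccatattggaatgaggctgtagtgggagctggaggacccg

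Over the whole set, 38 of the 48 genes matched 59 such windows, several genes having more than 1 start and some windows overlapping. The hexamer occurred on either strand in 14 of the 59 (23.7%), beside 11.6% of all 32851 windows and 19.9% of the 10189 windows of genes averaging 1 FPKM or more. Among the imprinted genes with such a mean, 10 of 46 windows (21.7%) held it, a share close to that of expressed genes in general. The windows with 3 copies or 2 copies belonged to Zdbf2 (3), Mest (2 in each of a pair of windows shifted by 3 bases) and Nap1l5 (2). These 4 windows are 6.78% of the 59, beside 1.53% of all windows. Among imprinted genes averaging 1 FPKM or more they are 3 of 46 windows (6.52%), beside 2.98% of the windows of all genes with such a mean. All 4 belong to paternally expressed genes, which hold 31 of the 59 windows. The windows were not matched to the control regions of the domains. Mest fell, Zdbf2 was at 5.01 and 5.31 FPKM, and Nap1l5 was at 0.0387 FPKM and listed at 0. CG dinucleotides had a median of 15 in the windows of expressed imprinted genes and 21 in those of all expressed genes.

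For the description by size, genes that averaged at least 1 FPKM over the genotypes were kept, and the change was computed as log2(FPKM + 1) of mutant minus wild type, a scale that understates the change of low genes. This kept 34 of the 48 imprinted genes (70.8%), beside 46.2% of all genes listed. Of the 34, 20 lay above 0 and 14 below, with a median change of 0.03, beside a median of -0.0012 over the 10766 genes kept. Their mean change was -0.06, of opposite sign to the median, as the largest differences were on the lower side. A change of 1.5-fold or more on this scale was seen for 3 genes on the lower side, Mest, Nnat and Sfmbt2, beside 1.19% of all genes kept. On the higher side it was seen for 1 gene, Slc22a18, beside 0.873%. Most imprinted genes differed little: 24 of the 34 (70.6%) were within 1.2-fold by plain ratio, as were 81.9% of all genes kept.

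**Figure D1:**
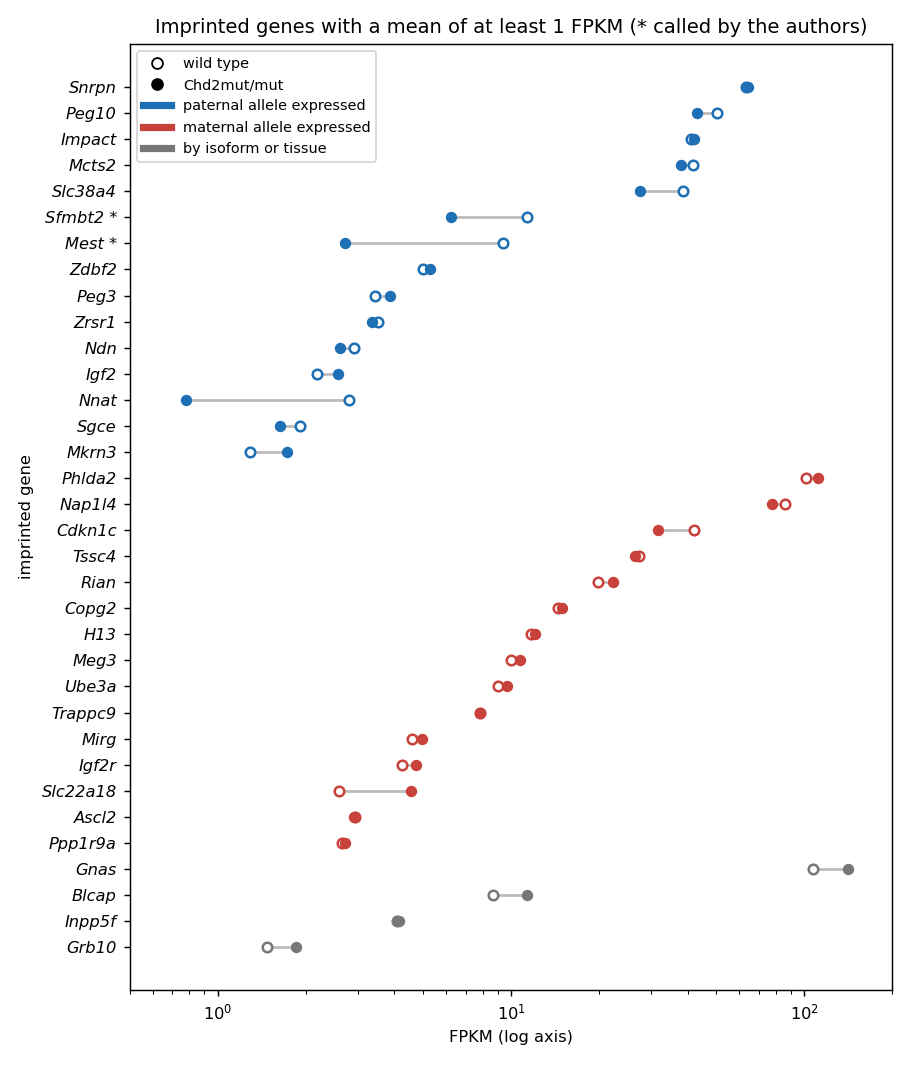
Levels of the 34 imprinted genes averaging 1 FPKM or more, on a log axis in FPKM. Open circles are wild type and filled circles Chd2mut/mut, 1 value of the authors each, coloured by the parental copy known to be expressed. Mest, Nnat and Sfmbt2 have the widest gaps to the left, and Slc22a18 the widest to the right.

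The set spanned a wide range of levels. In both genotypes 13 of the genes were at 10 FPKM or more. Gnas, which encodes the stimulatory G protein subunit and is imprinted by isoform, was the most abundant, at 107 FPKM (wild type) and 141 FPKM (mutant). Phlda2, a brake on placental growth, was at 101 and 111 FPKM. Summed over the 48 genes, the level was 750 FPKM in wild-type cells, compared with 751 FPKM in the mutant. The 14 genes below the minimum included Airn and Kcnk9, listed at 0 in both genotypes, and Nap1l5 and Kcnq1, listed at 0 in the mutant. Of the 14, 11 were under 0.3 FPKM in both genotypes, 5 were higher in the mutant and 7 lower.

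**Figure D2:**
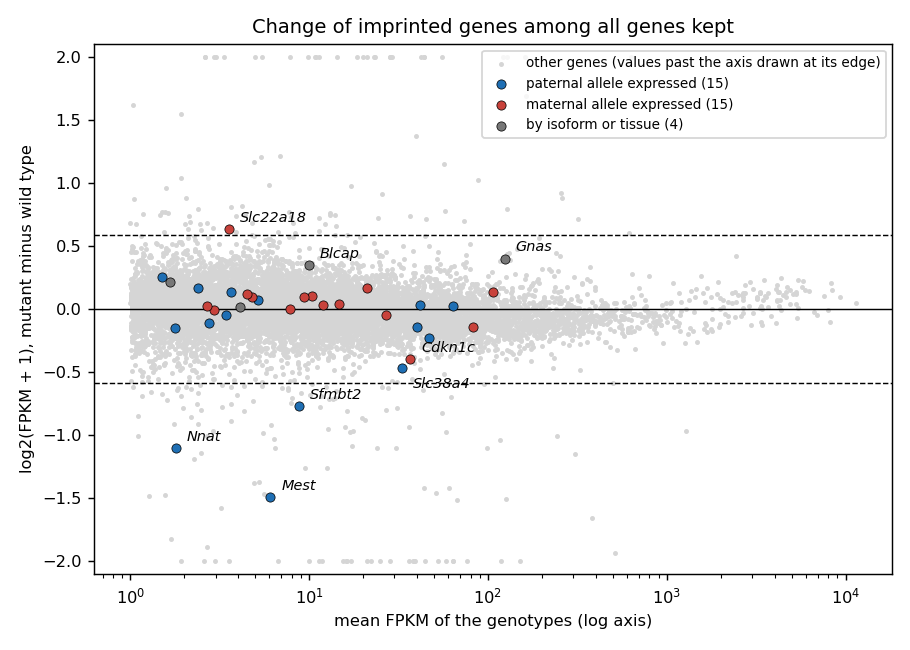
Change of each gene, log2(FPKM + 1) of mutant minus wild type, against its mean FPKM on a log axis, with the 34 imprinted genes coloured over all 10766 genes kept in grey. Dashed lines mark 1.5-fold; Mest, Nnat and Sfmbt2 lie below the lower line and Slc22a18 above the upper.

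The 23 paternally expressed genes held both calls, 2 of the 16 with a q-value under 1 (12.5%), beside 0.718% of all such genes. Of the 15 kept, 6 lay above 0 and 9 below, with a median change of -0.11, and their summed level, over all 23, was 281 FPKM (wild type) and 247 FPKM (mutant). The 21 maternally expressed genes held no call among the 16 with such a q-value, which is the usual outcome at that share over all genes. Of the 15 kept, 10 lay above 0 and 5 below, with a median of 0.04, and the summed level was 348 and 345 FPKM. All 4 genes whose expressed copy depends on isoform or tissue lay above 0, beside 49.6% of all genes kept, with a median of 0.28. Among them Inpp5f was close to 0, at 0.018, and lay below 0 after quantile normalization. The difference between these classes was not tested, as 1 value per genotype allows no test over samples. The genes were also chosen with several of these values known. Without a minimum level the paternal median was -0.02 and the maternal one 0.04.

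Nnat, which encodes the small membrane proteolipid neuronatin, was next after Mest among the paternally expressed genes by size of difference. It was at 2.81 FPKM in wild-type cells, compared with 0.779 FPKM in the mutant, 27.7% of the wild-type level. This ratio is as wide as that of Mest, but the authors' deposited table gives Nnat a q-value of 0.806. Slc38a4, an amino acid transporter of liver and placenta, was at 38.7 and 27.6 FPKM. Its q-value of 0.057 in the authors' deposited table is the lowest among the uncalled imprinted genes, just past the threshold of 0.05. Among other domains of a single gene, Impact, a regulator of the amino acid response, was at 41.3 and 42.1 FPKM, and the splicing factor gene Zrsr1 at 3.52 and 3.37 FPKM. Plagl1, a zinc finger factor that acts on other imprinted genes, was low, at 0.217 and 0.0511 FPKM.

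The 48 genes fall into 21 domains, of which 11 hold several of them. In the Mest domain, Copg2, a coat protein gene that overlaps Mest on the opposite strand, was at 14.4 FPKM (wild type) and 14.9 FPKM (mutant) while Mest fell. In the Nnat domain, Blcap, in whose intron Nnat lies, was at 8.66 and 11.3 FPKM, on the other side of 0 from Nnat. Mcts2, a retrogene within H13, was at 41.9 and 37.9 FPKM, and its host H13, a signal peptide peptidase gene, at 11.7 and 12.1 FPKM. The labels do not state strand-specific counting. Reads shared by overlapping genes therefore cannot be told apart, which touches Mest and Nnat, and reads of retrogenes such as Mcts2 and Zrsr1 may be shared with their parent genes.

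The Kcnq1 domain, with 9 genes, held more of the genes than any other, with values on either side of 0. Of the 6 genes kept, 2 lay above 0 and 4 below. Slc22a18, a transporter gene, was at 2.59 FPKM in wild-type cells, compared with 4.57 FPKM in the mutant, with a q-value of 0.152 in the authors' deposited table. Its neighbour Cdkn1c, which encodes the cell cycle inhibitor p57, was at 42.0 and 31.7 FPKM with a q-value of 0.293 there. Both are read from the maternal copy, and they lay on opposite sides of 0. Ascl2, a transcription factor of the placenta, was at 2.95 and 2.92 FPKM. Nap1l4 and Tssc4, imprinted mainly in placenta, were at 86.2 and 77.9 FPKM and at 27.4 and 26.5 FPKM. Kcnq1ot1, the noncoding RNA that silences the paternal copies of this domain, was at 0.755 and 0.890 FPKM, and Kcnq1, in which it starts, at 0.0246 FPKM and listed at 0. Osbpl5, a lipid transfer protein gene, was at 0.138 and 0.295 FPKM.

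In the Dlk1-Meg3 domain the noncoding RNAs read from the maternal copy were expressed in both genotypes, although this domain is known to be silenced in some pluripotent lines. Meg3 was at 9.96 FPKM (wild type) and 10.8 FPKM (mutant). Rian, a host of small nucleolar RNAs, was at 19.7 and 22.2 FPKM. Mirg, a host of microRNAs, was at 4.60 and 4.99 FPKM. The mutant level of these 3 RNAs was thus 108.0%, 113% and 109% of wild type, and none was called. The paternally expressed coding genes were low, with Dlk1, a Notch-like growth regulator, at 0.655 and 0.683 FPKM and Rtl1 at 0.0630 and 0.0515 FPKM.

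In the Peg10-Sgce domain no gene was called, and all 3 kept were within 1.2-fold by plain ratio, as were 81.9% of all genes kept. The paternally expressed pair had close ratios, with q-values of 0.788 (Peg10) and 0.998 (Sgce) in the authors' deposited table. The retrotransposon-derived Peg10, needed for the placenta, was at 50.4 FPKM in wild-type cells, compared with 42.9 FPKM in the mutant, or 85.2%. Its divergent neighbour Sgce, a sarcoglycan gene, was at 1.91 and 1.62 FPKM, or 84.9%. The maternally expressed Ppp1r9a was at 2.66 and 2.72 FPKM. Asb4, the remaining gene, was at 0.0443 and 0.115 FPKM.

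In the Snrpn-Ube3a domain, the region of the Prader-Willi and Angelman syndromes, no gene was called. Snrpn, a spliceosomal protein gene, was at 63.2 FPKM (wild type) and 64.3 FPKM (mutant). Ndn, which encodes necdin, was at 2.90 and 2.62 FPKM. Mkrn3, which acts on the timing of puberty, was at 1.29 and 1.72 FPKM. The ubiquitin ligase gene Ube3a, imprinted in neurons, was at 9.01 and 9.72 FPKM, and Magel2 was at 0.0421 and 0.0571 FPKM.

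None of the remaining genes was called. Igf2, a fetal growth factor, was at 2.19 FPKM in wild-type cells, compared with 2.57 FPKM in the mutant. H19, the noncoding RNA that shares its enhancers and is read from the other parental copy, was at 0.840 and 0.320 FPKM, with a q-value of 0.236 in the authors' deposited table. Igf2r, which clears the growth factor, was at 4.26 and 4.73 FPKM. Grb10, an adaptor that restrains growth, was at 1.47 and 1.85 FPKM. Of the Peg3 domain, the zinc finger gene Peg3 was at 3.44 and 3.87 FPKM, while Zim1 was at 0.120 and 0.0638 FPKM and Usp29 at 0.0180 and 0.0174 FPKM. The trafficking gene Trappc9, imprinted in brain, was at 7.84 FPKM in both genotypes. Inpp5f, a phosphatase gene with 1 imprinted isoform, was at 4.08 and 4.15 FPKM.

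**Figure D3:**
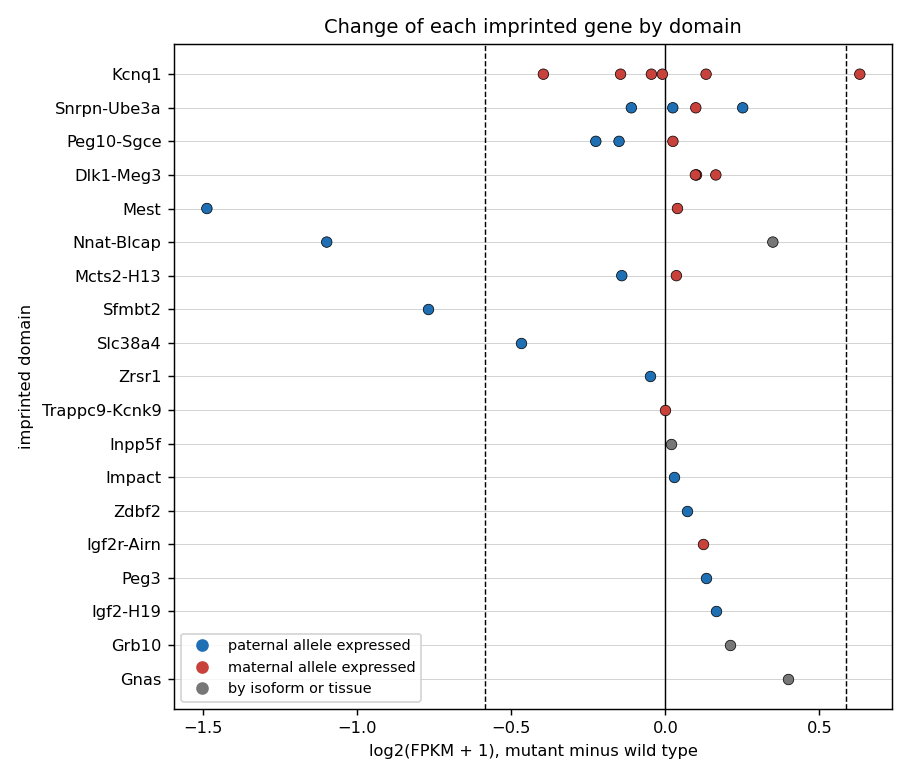
Change of the 34 imprinted genes kept, log2(FPKM + 1) of mutant minus wild type, with each domain on its own line and points coloured by the parental copy expressed. Genes of the Mest, Nnat-Blcap and Kcnq1 domains are spread on either side of 0, while the 3 of Dlk1-Meg3 lie together above it; dashed lines mark 1.5-fold.

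Neighbouring genes along the chromosome were then compared, taking the 4 nearest genes kept on each side in the order of GRCm38. Only coding and long noncoding genes whose symbol matched GENCODE M21 were used, so a kept gene under another symbol may have been passed over. The comparison was chosen after the values were seen. Its central genes were the imprinted genes kept with the widest changes, so a wider change at the centre than beside it was largely set by that choice. None of the 8 neighbours of Mest was called, and their changes ran from -0.33 (Zc3hc1) to 0.05 (Tmem209). Beside Sfmbt2, Kin was at 19.2 FPKM (wild type) and 19.4 FPKM (mutant). The gene after Kin, Atp5c1, an ATP synthase subunit, was called and fell from 327 to 162 FPKM. The other 7 neighbours of Sfmbt2 were not called. Beside Slc38a4, its relatives Slc38a2 and Slc38a1 were at 78.5 and 83.9 FPKM and at 10.7 and 12.4 FPKM. None of the 8 genes around Slc38a4, around Nnat or around Slc22a18 was called, beside 0.718% of all genes with a q-value under 1. At that share no call is the usual outcome for 8 genes. Those around Slc22a18 are partly of the set itself, and their changes ran from -0.40 (Cdkn1c) to 0.17 (R74862).

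**Figure D4:**
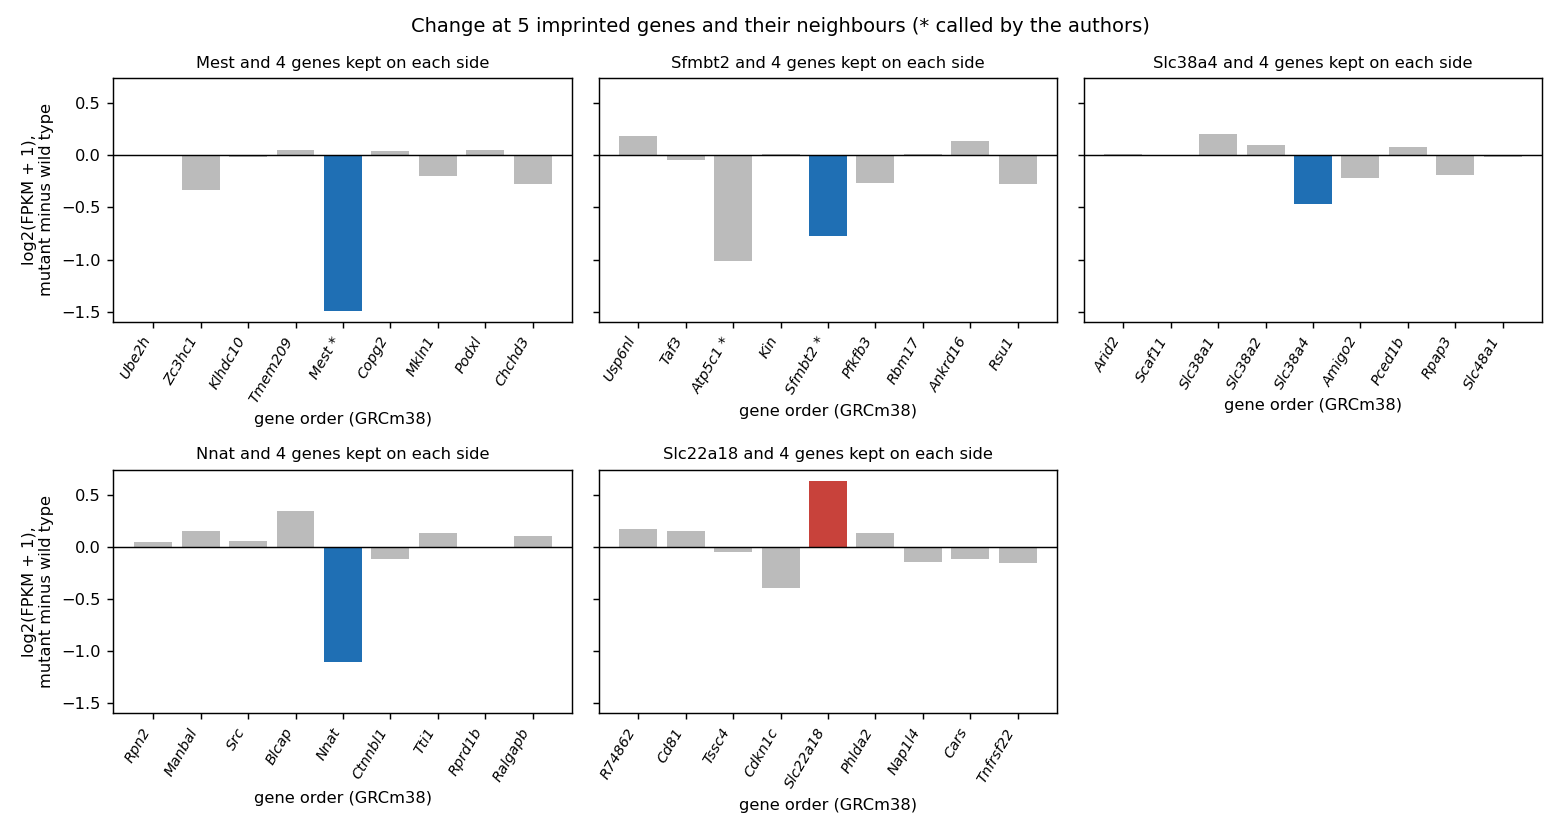
Change in log2(FPKM + 1), mutant minus wild type, of Mest, Sfmbt2, Slc38a4 and Nnat (blue bars), of Slc22a18 (red bar) and of the 4 kept genes on each side in gene order (grey bars). Each blue bar is the lowest of its panel except that of Sfmbt2, where Atp5c1 is lower at -1.01, and the red bar is the highest of its panel. The coloured genes were picked as the imprinted genes kept with the widest changes, so their place in each panel was largely set by that choice.

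Of the imprinted genes outside the set, 21 had a q-value under 1 and none was called, beside 0.718% of all genes with such a q-value. Of 47 further imprinted genes listed, 19 were kept, 7 above 0 and 12 below, with a median change of -0.04 and none past 1.5-fold on the log2(FPKM + 1) scale. Among those kept, the widest differences on that scale were those of Qpct (1.45 and 0.929 FPKM, which is past 1.5-fold by plain ratio), Chrac1 (27.5 and 33.0 FPKM), Smoc1 (4.60 and 3.82 FPKM) and Ddc (5.63 and 6.70 FPKM). Dio3, which lies beyond Dlk1 and Meg3 in their domain and encodes a thyroid hormone deiodinase, was below the minimum level, at 0.349 and 1.00 FPKM, with a q-value of 0.436 in the authors' deposited table. Small RNA genes of the imprinted domains, such as the microRNAs hosted by Mest and Mirg, were looked up by symbol. All 62 that were found are listed at 0 in both genotypes, which can be a failed estimate for such short transcripts, beside 84.5% of the 710 listed genes with symbols that begin with Mir or Snor.

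Of the 22 genes known to place, keep or remove imprints, 21 had a q-value under 1 and none was called, beside 0.718% of all genes with such a q-value. At that share no call is the usual outcome for a list of this length. Of the 21 kept, 7 lay above 0 and 14 below, with a median change of -0.04 and none past 1.5-fold on the log2(FPKM + 1) scale. Among those kept, the widest differences on that scale were those of Tet1 (12.2 and 15.5 FPKM), which oxidises methylated cytosine, the de novo methyltransferase Dnmt3a (7.05 and 5.64 FPKM), Smchd1 (11.6 and 13.9 FPKM) and Zfp57 (155 and 132 FPKM). The maintenance methyltransferase Dnmt1 was at 77.7 and 78.5 FPKM.

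Mest is also strong in mesenchyme and Sfmbt2 in trophoblast, so markers of those cells are given beside them. In bulk RNA, fewer cells of a type and less RNA per cell cannot be told apart. The 11 fibroblast and mesenchyme markers summed to 17.1 FPKM in wild-type cells, compared with 14.8 FPKM in the mutant, of which Thy1 made up 14.2 and 11.5 FPKM. Twist1 was at 2.35 and 2.93 FPKM, and no fibroblast or mesenchyme marker other than Thy1 and Twist1 exceeded 0.334 FPKM in either genotype. The collagen genes Col1a1 (0.0741 and 0.0390 FPKM) and Col1a2 (0.0422 and 0.0142 FPKM) were near 0. The 9 trophoblast markers summed to 10.2 and 9.87 FPKM, mostly Tfap2c at 8.08 and 8.07 FPKM. No other trophoblast marker exceeded 0.965 FPKM in either genotype. Cdx2 was at 0.405 and 0.266 FPKM and Elf5 at 0.0927 FPKM and listed at 0, while Krt7 was at 0.186 and 0.562 FPKM. None of the fibroblast or trophoblast markers was called. Whether these markers have a part in the falls of Mest and Sfmbt2 was not tested.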

How the data were processed

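RNA sequencing libraries of 2 wild-type and 2 Chd2 mutant samples were grouped by their titles. The authors deposited 1 FPKM value per gene and genotype, so library totals are unknown and values carry no counting interval. The submitters' processing notes name bcl2fastq (2.17.1.14), TopHat2 (2.1.0), Cufflinks and the build mm9. The sources used here do not give the Cufflinks version, the annotation or the test. The deposited table also has a log2 fold change, a q-value and a call for each gene, per the file headers, and all 81 calls have a q-value under 0.05.

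Genes averaging 1 FPKM or more were kept, and changes were computed with a pseudocount of 1 (Python 3.11.15, pandas 2.3.3). A limma fit needs values per library and was not run. The naming rule takes every kept member and, from other lists, calls and up to 4 kept genes with the widest differences. Pou5f1, Dio3, Dnmt1, markers below the minimum level and neighbouring genes were named outside it, after their values were seen. Cell type markers are those of the fixed lists. The members and lists were chosen with earlier results of these data known. Parental copy and domain were assigned from general knowledge. Symbols were matched to RefSeq and GENCODE M21 (GRCm38) for chromosomes, overlaps, gene order and start regions; all 48 matched a gene.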

Additional observations from a re-analysis of the deposited data

How the results depend on the processing

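The 2 calls are the authors' own, so only a change in which genes are kept could alter their number. The count of 3 genes past 1.5-fold on the lower side was also obtained without a minimum level, with a pseudocount of 0.1, with the median change of all genes set to 0 and after quantile normalization. With a mean of at least 5 FPKM, no gene was past 1.5-fold on the higher side and 2 were on the lower side, since Slc22a18 and Nnat lie under that level. Settings added after seeing the data were the plain ratio, leaving out genes imprinted mainly in some tissues, and leaving out genes that overlap another kept gene. The last left 1 call, Sfmbt2, and 1 gene past 1.5-fold on the lower side, since it removes Mest and Nnat by construction. All 8 genes classed as imprinted mainly in some tissues are maternally expressed, and Sfmbt2 and Slc38a4 were not classed so. Leaving those 8 out therefore could not alter the calls, the count on the lower side or the paternal median. Over all settings the paternal median lay between -0.18 and -0.02, and the maternal one between 0.04 and 0.10. Leaving out overlapping genes, Mest and Nnat among them, gave a paternal median of -0.04. All settings reuse the same values of genes chosen with earlier results known, so they do not test the difference between the classes. Of 136 values of single genes under other pseudocounts and scalings, 10 moved by more than 0.1, in 5 genes. Mest was at -1.76 and Nnat at -1.73 with a pseudocount of 0.1. The sign changed for 2 genes near 0, Trappc9 with the median set to 0 and Inpp5f after quantile normalization. No paired analysis was possible because the table carries 1 value per genotype and none per lot, and for the same reason no library could be left out.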
